A study of Saccharomyces cerevisiae with 4 samples.

Results

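The genes described here are 34 carriers of amino acids, ammonium and other nitrogen compounds in Saccharomyces cerevisiae. They were taken by symbol from the 7126 features measured in manganese-adapted and control cells. Of these genes, 27 encode plasma membrane permeases, including the permease-like sensor SSY1, and 7 encode the AVT carriers of the vacuole. In the manganese-adapted libraries 16 plasma membrane genes rose and 4 fell, against 33.6% and 34.9% of all tested features. With a trend on coding length removed, 13 were higher and 7 lower, against 33% and 33.5% of features with a length. The largest changes were rises of ALP1, DIP5, AGP3 and PUT4 and a fall of MUP1. The general amino acid permease gene GAP1, the highest of the 34 in control cells, fell, and BAP2 and DIP5 stood above it in adapted cells. Of the 7 vacuolar genes 3 rose (AVT3, AVT4 and AVT7) and 1 fell (AVT2), against 33.6% and 34.9% of all tested features. The AVT7 call was lost with the length trend removed, and the AVT2 call with replicate number as a block. No change of a vacuolar gene reached 2-fold, against 8.28% of all tested features higher and 7.21% lower by that much.

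Yeast takes up amino acids through a family of proton-coupled permeases, some broad in range and others specific for 1 amino acid or a few. Ammonium enters through the Mep proteins, and allantoin, urea, peptides and GABA have carriers of their own. Uptake genes are classically controlled by nitrogen catabolite repression, in which GATA factors act when preferred nitrogen sources are scarce, and by the SPS sensor, which releases the factors Stp1 and Stp2 when amino acids are present outside the cell. The vacuole stores amino acids, and AVT carriers move them across its membrane.

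Total RNA of strain CRY, a MATa strain whose genotype lists deletions of ade2, his3, leu2, trp1 and ura3 in both groups, was sequenced in 4 libraries, 2 per group. Control cells grew for 18 h in rich medium (YPD) whose manganese was put at 0.0036 mM. Adapted cells grew for 120 h in YPD with manganese sulfate at 2.5 mM, in each case to the stationary stage. Culture time and manganese therefore cannot be told apart in any difference below. Whether replicates were separate cultures is not stated, so the tests weigh differences against a spread that may be technical only. The libraries held 12307870 to 14184276 reads, recovered as whole numbers from the deposited counts scaled to library size (CPM). All 5 genes listed as deleted had reads in every library, from 37.0 CPM for HIS3 to 830.2 CPM for LEU2, which does not match a full loss of those coding regions and whose source was not tested. URA3 (284 and 312 CPM in control, 139 and 137 CPM in adapted cells), ADE2 (171 and 188, then 129 and 126 CPM) and TRP1 (50.4 and 51.3, then 40.0 and 37.1 CPM) were lower in adapted cells, and HIS3 and LEU2 were higher. All 34 carriers were well above the filter for testing, at 31.5 CPM or more in every library. In these bulk libraries, a change in every cell and a change in the share of cells using a gene cannot be told apart.

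Sequences upstream of 7 members are shown because their genes differ in direction and in 2 motifs bound by the known regulators. Each is the stretch from 400 to 151 bases before the start codon, 5′ to 3′ on the gene's strand, from the R64 RefSeq genome. Capitals mark GATAAG, bound by GATA factors, and CGGCTC, found in sites of Stp1 and Stp2, each in either orientation.
GAP1 (chrXI:514663-514912, plus strand): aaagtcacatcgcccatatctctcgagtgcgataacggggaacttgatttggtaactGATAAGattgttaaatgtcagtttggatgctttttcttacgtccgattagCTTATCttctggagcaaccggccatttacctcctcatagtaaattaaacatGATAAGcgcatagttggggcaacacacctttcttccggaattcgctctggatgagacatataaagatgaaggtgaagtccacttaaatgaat
MEP2 (chrXIV:357053-357302, plus strand): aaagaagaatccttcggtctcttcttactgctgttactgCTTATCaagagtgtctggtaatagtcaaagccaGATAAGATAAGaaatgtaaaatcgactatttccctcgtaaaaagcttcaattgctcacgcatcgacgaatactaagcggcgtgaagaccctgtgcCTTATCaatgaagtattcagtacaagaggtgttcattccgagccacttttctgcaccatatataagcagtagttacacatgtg
PUT4 (chrXV:988933-989182, minus strand): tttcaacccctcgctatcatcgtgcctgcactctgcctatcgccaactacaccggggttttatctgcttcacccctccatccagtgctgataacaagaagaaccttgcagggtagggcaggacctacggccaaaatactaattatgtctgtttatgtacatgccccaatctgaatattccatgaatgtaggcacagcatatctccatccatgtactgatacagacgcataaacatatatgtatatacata
DIP5 (chrXVI:40643-40892, plus strand): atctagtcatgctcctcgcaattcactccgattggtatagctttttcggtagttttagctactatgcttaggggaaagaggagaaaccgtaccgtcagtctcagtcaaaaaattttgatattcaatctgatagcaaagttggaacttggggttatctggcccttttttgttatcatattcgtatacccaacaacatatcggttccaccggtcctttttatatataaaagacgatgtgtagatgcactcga
ALP1 (chrXIV:137812-138061, minus strand): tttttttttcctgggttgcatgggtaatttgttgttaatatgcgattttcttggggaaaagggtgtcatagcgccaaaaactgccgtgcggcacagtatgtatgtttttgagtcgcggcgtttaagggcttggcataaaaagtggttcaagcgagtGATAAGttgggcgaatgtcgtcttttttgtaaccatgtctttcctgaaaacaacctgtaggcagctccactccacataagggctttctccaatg
BAP2 (chrII:375841-376090, minus strand): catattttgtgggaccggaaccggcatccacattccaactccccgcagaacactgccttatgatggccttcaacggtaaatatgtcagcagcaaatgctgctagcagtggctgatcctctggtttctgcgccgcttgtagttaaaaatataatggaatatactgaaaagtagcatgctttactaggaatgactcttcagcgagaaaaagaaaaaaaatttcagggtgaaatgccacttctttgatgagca
BAP3 (chrIV:550727-550976, minus strand): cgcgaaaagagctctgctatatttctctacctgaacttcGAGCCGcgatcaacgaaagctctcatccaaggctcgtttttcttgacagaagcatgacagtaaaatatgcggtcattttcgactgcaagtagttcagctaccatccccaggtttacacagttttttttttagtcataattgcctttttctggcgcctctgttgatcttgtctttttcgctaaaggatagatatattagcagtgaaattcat

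In the 600 bases before the start codon, read on both strands with overlapping matches counted separately, GAP1 had 5 matches to GATAAG and MEP2 had 7. Of 6010 genes with such a window, 4.91% had 2 or more matches. Among the 9 members assigned here to nitrogen catabolite repression, 7 had 2 or more. Of members not so assigned, CAN1 had 3 matches, and AGP1, MUP3, AVT4 and AVT7 had 2 each. PUT4 had none, and neither did DIP5, BAP2 or BAP3. CGGCTC occurred once before BAP2 and in 2 places before BAP3, against 7.99% of all windows with 1 or more. These were the only 2 of the 7 members assigned here to the SPS sensor with a match, and MUP1, SAM3 and AVT4 had 1 each. TGTGGC, the core of sites of the methionine regulators Met31 and Met32, was found before all 4 sulfur amino acid permease genes and in 17.2% of all windows. It was also found before AGP3, TAT1, CAN1 and DAL4, and so before 8 of the 27 plasma membrane genes. The motif of Cbf1, CACGTG, was before 1 of the 27 (MUP3) and 2 of the 7 vacuolar genes, against 7.2% of all windows. The motif of Gcn4, TGACTC, was before 8 of the 27 and 2 of the 7, against 15.3% of all windows. A match is a description of these letters and not a shown site.

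**Figure D1:**
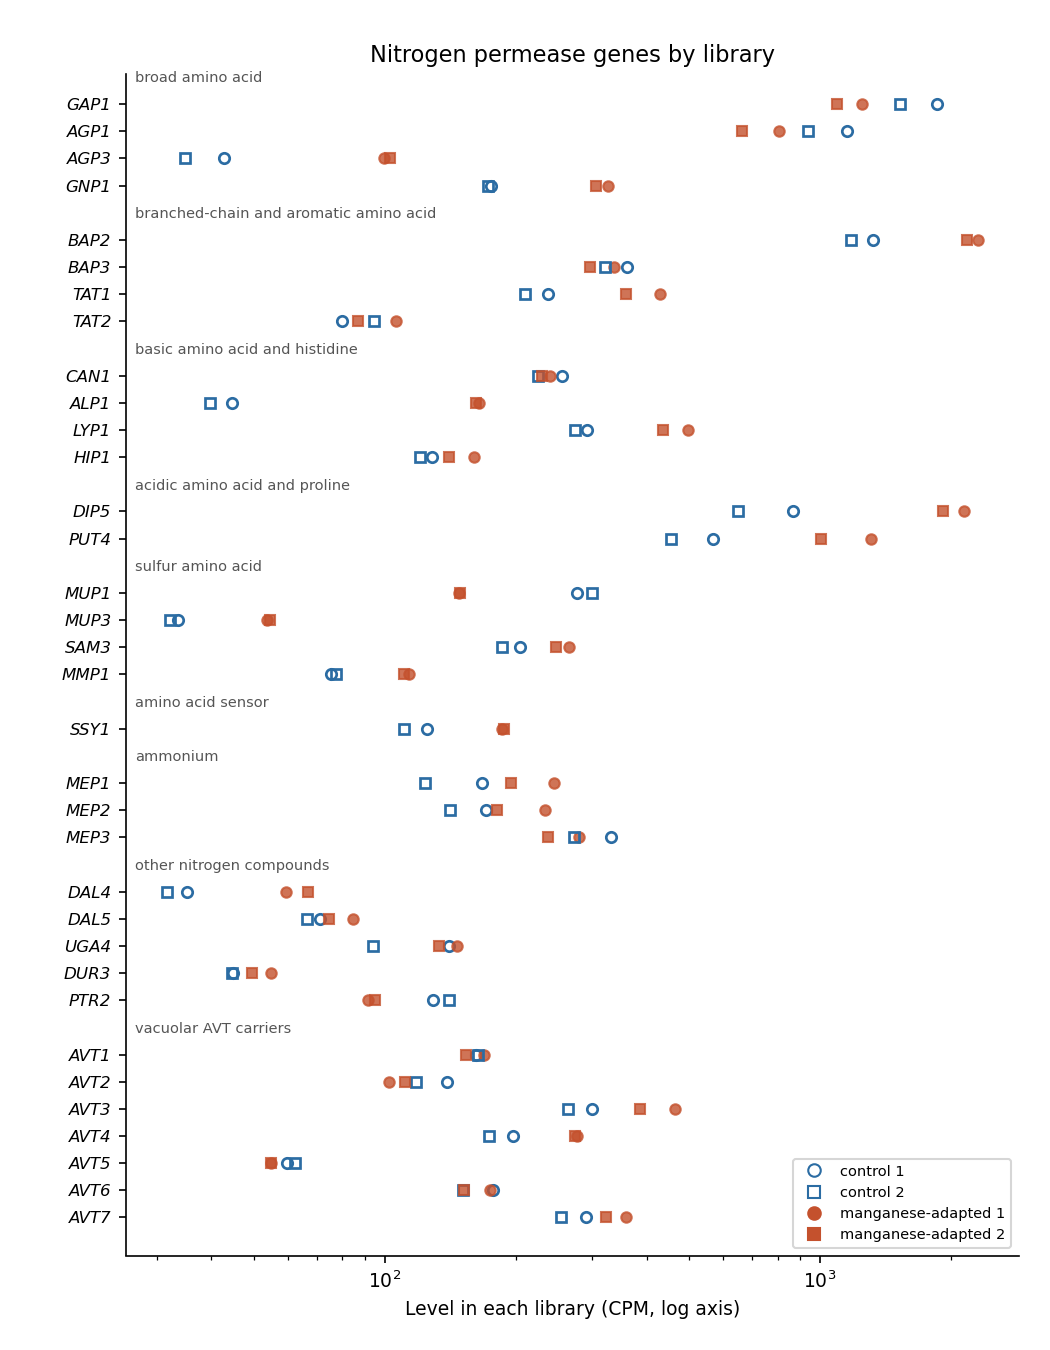
Level of each of the 34 genes in each library, in CPM on a log axis, with control libraries as open blue symbols and manganese-adapted libraries as filled orange symbols. ALP1, AGP3 and DIP5 show the widest gaps upward, and MUP1 the widest gap downward.

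Differences were tested with limma on log2(CPM + 1) over all 6296 features with at least 1 CPM in 2 libraries, with Benjamini-Hochberg adjustment over all of them and a threshold of 0.05. By this rule 24 of the 34 members were called in either direction, against 68.5% of all tested features. Among them, 16 of the 27 plasma membrane genes were higher in adapted cells and 4 were lower, and 7 were not called. Over all tested features, 33.6% were called higher and 34.9% lower. The median log2 fold change of the 27 genes was 0.40 and that of all tested features was -0.01. Rises of at least 2-fold were called for 4 of the 27, and falls of at least 2-fold for 0 of the 27, against 8.28% and 7.21% of all features. Libraries of the groups did not overlap for 18 genes with adapted above control and for 4 with adapted below, against 42.4% and 43.3% of all features. SSY1 is a sensor and the product of UGA4 has also been seen at the vacuole, and without these genes 15 of 25 rose and 4 fell. In the authors' deposited table, the 34 members had the same calls at a false discovery rate of 0.05, with 19 higher and 5 lower.

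The broad-range permeases split. GAP1 (YKR039W), the general amino acid permease, was at 1862 and 1528 CPM in control libraries 1 and 2 and at 1251 and 1093 CPM in adapted libraries 1 and 2. Both adapted values lay below both controls, and GAP1 fell 1.45-fold (log2 fold change -0.53 ± 0.15 SE, limma adjusted p 0.00794). AGP1, which carries many amino acids at lower affinity, was at 1156 and 937 CPM in control and at 804 and 661 CPM in adapted cells (-0.51 ± 0.14 SE, adjusted p 0.00731). With 1 library left out, the log2 fold change ran from -0.670 to -0.386 for GAP1 and from -0.665 to -0.363 for AGP1. AGP3, a low-affinity permease, moved the other way. It was at 42.8 and 34.8 CPM in control and at 99.7 and 102.8 CPM in adapted cells, a rise of 2.61-fold (log2 fold change 1.37 ± 0.11 SE, adjusted p 1.99e-06). GNP1, the glutamine permease, was at 175 and 173 CPM and at 327 and 306 CPM, and rose 1.82-fold (0.86 ± 0.08 SE, adjusted p 8.09e-06).

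AGP1 and GNP1 are close relatives that went in opposite directions. Their coding sequences were 71.2% identical over aligned bases, and their longest stretch shared without a mismatch is shown. A read with mismatches could match both genes over more bases, and how reads were divided between them was not tested. The longest such stretch is also shown for ALP1 and LYP1, the only other members sharing a stretch as long.
AGP1 and GNP1 (chrIII:77213-77259 in AGP1, minus strand): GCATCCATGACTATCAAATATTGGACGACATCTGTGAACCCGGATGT
ALP1 and LYP1 (chrXIV:136799-136845 in ALP1, minus strand): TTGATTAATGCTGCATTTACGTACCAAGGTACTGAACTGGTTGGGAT
The stretches are in capitals because every base is shared. Each is 47 bases long, and the next longest between any members is 26 bases. The stretch lies at coding bases 661 to 707 of AGP1 and 817 to 863 of ALP1. Per kb of coding length, AGP1 stood above GNP1 by 6.90-fold and 5.68-fold in the control libraries and by 2.58-fold and 2.26-fold in the adapted ones.

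Genes for branched-chain and aromatic amino acid uptake rose in 2 of 4 cases. BAP2, a branched-chain amino acid permease, was at 1322 and 1181 CPM in control and at 2308 and 2175 CPM in adapted cells, and rose 1.79-fold (log2 fold change 0.84 ± 0.14 SE, adjusted p 3.17e-04). TAT1, which carries tyrosine and valine, lies beside BAP2 on chromosome II on the same strand with 883 bases between them. It was at 237 and 210 CPM and at 430 and 359 CPM, a rise of 1.76-fold (0.81 ± 0.11 SE, adjusted p 6.79e-05). TAT1 overlaps an annotated gene on the opposite strand, and its reads cannot be told apart from that gene's because the strand setting is not given. BAP3, a second branched-chain permease 70.0% identical to BAP2 in coding sequence, overlapped between groups at 361 and 322 CPM and 337 and 296 CPM (-0.11 ± 0.10 SE, adjusted p 0.353). The BAP2 level per kb was 3.63-fold and 3.64-fold that of BAP3 in control libraries and 6.79-fold and 7.30-fold in adapted ones, so the groups did not overlap in this ratio. TAT2, the tryptophan permease, also overlapped, at 79.8 and 94.6 CPM and 106 and 86.8 CPM (0.14 ± 0.12 SE, adjusted p 0.298). Its log2 fold change ran from -0.002 to 0.286 over libraries left out.

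Among genes for basic amino acids, ALP1 had the largest rise of all 34 members. ALP1 (YNL270C) encodes a permease close to the arginine permease Can1. It was at 44.6 and 39.7 CPM in control and at 164.5 and 161.8 CPM in adapted cells, 3.87-fold higher (log2 fold change 1.93 ± 0.09 SE, adjusted p 6.62e-08). LYP1, the lysine permease, lies on chromosome XIV on the other strand, with 888 bases between the start of its coding region and that of ALP1. It was at 292 and 273 CPM and at 498 and 436 CPM, a rise of 1.65-fold (0.72 ± 0.10 SE, adjusted p 7.93e-05). CAN1 itself was at 256 and 225 CPM and at 239.6 and 230.2 CPM, with groups that overlapped (-0.03 ± 0.09 SE, adjusted p 0.769). The CAN1 level per kb was 5.58-fold and 5.51-fold that of ALP1 in control and 1.42-fold and 1.38-fold in adapted libraries. HIP1, the histidine permease, was at 128 and 121 CPM and at 160.1 and 140.6 CPM (0.27 ± 0.09 SE, adjusted p 0.0239). Its log2 fold change ran from 0.173 to 0.359 over libraries left out.

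Carriers of acidic amino acids and proline rose at high levels. DIP5, the glutamate and aspartate permease, was at 867 and 648 CPM in control and at 2140.0 and 1918 CPM in adapted cells. Both adapted values were more than 2-fold above both controls, and DIP5 rose 2.68-fold in all (log2 fold change 1.43 ± 0.15 SE, adjusted p 1.54e-05). PUT4, the proline permease, was at 568 and 455 CPM and at 1312 and 1005 CPM, and rose 2.27-fold (1.17 ± 0.15 SE, adjusted p 4.99e-05). Neither gene held GATAAG or CGGCTC in the stretches printed above.

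In the sulfur amino acid group the methionine permeases diverged. MUP1, the high-affinity methionine permease, was at 277 and 299.7 CPM in control and at 148 and 149 CPM in adapted cells. This was the largest fall among the 34 members, 1.94-fold (log2 fold change -0.95 ± 0.08 SE, adjusted p 3.97e-06). MUP3, the low-affinity methionine permease, was at 33.5 and 32.1 CPM and at 53.8 and 54.4 CPM, a rise of 1.65-fold (0.71 ± 0.09 SE, adjusted p 7.13e-05). MMP1, for S-methylmethionine, rose 1.48-fold from 75.2 and 77.3 CPM to 114 and 111 CPM (0.56 ± 0.08 SE, adjusted p 1.54e-04). SAM3, for S-adenosylmethionine, was at 205 and 186 CPM and at 266 and 247 CPM (0.39 ± 0.09 SE, adjusted p 0.00271). Leaving out 1 library gave log2 fold changes from 0.320 to 0.459 for SAM3. SAM3 and MMP1 were 70.4% identical in coding sequence and both lay higher in each adapted library than in each control.

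SSY1, the permease-like sensor that detects external amino acids and does not itself import them, was at 125 and 111 CPM in control and at 186 and 189 CPM in adapted cells. It rose 1.59-fold (log2 fold change 0.67 ± 0.09 SE, adjusted p 6.95e-05).

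Of the ammonium permease genes MEP1 and MEP2 rose, by amounts that varied with the library left out. MEP1 was at 168 and 124 CPM in control and at 245 and 195 CPM in adapted cells (log2 fold change 0.60 ± 0.14 SE, adjusted p 0.00365). MEP2, the high-affinity permease that is also known to act in filamentous growth, was at 171 and 142 CPM and at 233 and 181 CPM (0.40 ± 0.13 SE, adjusted p 0.0175). Over libraries left out, the log2 fold change ran from 0.379 to 0.812 for MEP1 and from 0.214 to 0.581 for MEP2. MEP3 was at 330.4 and 273 CPM and at 279.7 and 238 CPM, with groups that overlapped (-0.22 ± 0.11 SE, adjusted p 0.112). Its log2 fold change ran from -0.356 to -0.080 over libraries left out. MEP1 and MEP3 were 71.5% identical in coding sequence. The level of MEP3 per kb was 1.98-fold and 2.21-fold that of MEP1 in control and 1.15-fold and 1.23-fold in adapted libraries.

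Of the carriers of other nitrogen compounds, DAL4 rose and PTR2 fell. DAL4, the allantoin permease, was at 35.2 and 31.5 CPM in control and at 59.2 and 66.7 CPM in adapted cells, 1.89-fold higher (log2 fold change 0.90 ± 0.10 SE, adjusted p 2.71e-05). PTR2, the importer of dipeptides and tripeptides, was at 129 and 140.3 CPM and at 91.5 and 95.3 CPM, 1.44-fold lower (-0.52 ± 0.09 SE, adjusted p 3.04e-04). DAL5, for allantoate and dipeptides, was at 71.1 and 66.5 CPM and at 84.7 and 74.5 CPM (0.21 ± 0.10 SE, adjusted p 0.0765). DUR3, the urea and polyamine permease, was at 44.8 and 44.6 CPM and at 54.7 and 49.5 CPM (0.21 ± 0.10 SE, adjusted p 0.0687). For DAL5 and DUR3 both adapted values lay above both controls without a call. UGA4, the GABA permease, varied most between the control libraries, at 141 and 94.0 CPM, and was at 147 and 133 CPM in adapted cells (0.28 ± 0.15 SE, adjusted p 0.127). Without control replicate 1 its log2 fold change was 0.57 and without control replicate 2 it was -0.01, so the value for UGA4 rests on which control is used.

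**Figure D2:**
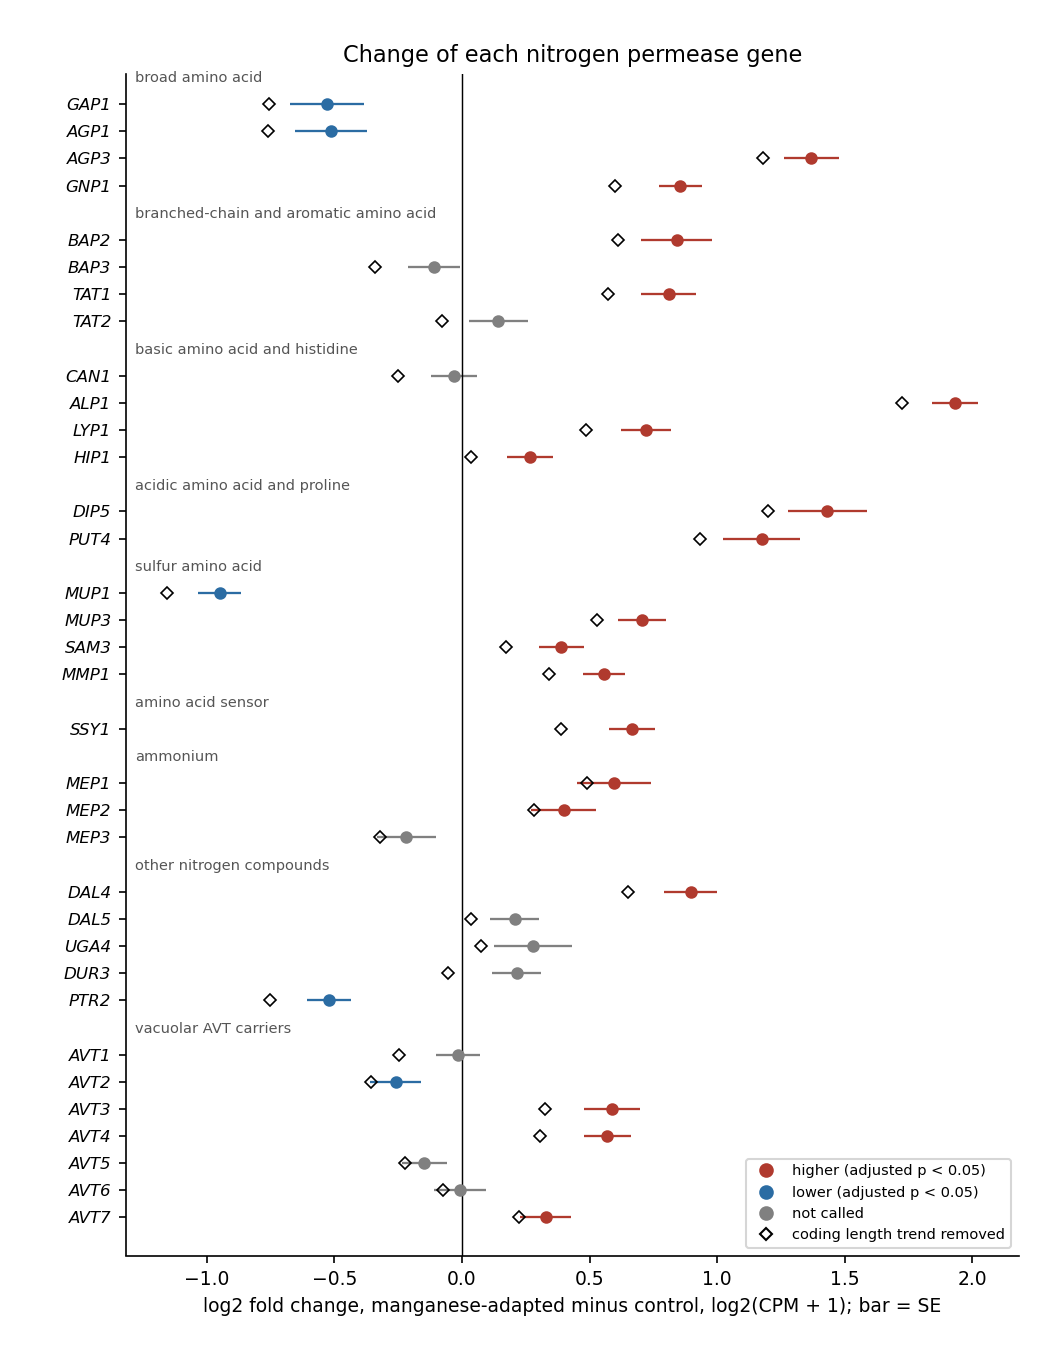
Log2 fold change of each gene, adapted minus control in log2(CPM + 1), with bars for the limma standard error, red for higher, blue for lower and grey for not called. Open diamonds give the value with the trend on coding length removed, which lies to the left of the main value for every gene.

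The genes assigned here to nitrogen catabolite repression did not move together. Of 9 such genes, 4 rose (PUT4, DAL4, MEP1 and MEP2), 1 fell (GAP1) and 4 were not called, against 33.6% higher and 34.9% lower over all features. Their median log2 fold change was 0.28, and 0.07 after the length trend described below was removed, with 3 higher and 2 lower. Of 7 genes known as targets of the SPS sensor, 4 rose (DIP5, GNP1, BAP2 and TAT1), 2 fell (AGP1 and PTR2) and 1 was not called (BAP3). The shares over all features were again 33.6% higher and 34.9% lower. The median of the 7 was 0.81, and 0.57 after that removal, with 4 higher and 3 lower. Among features with a length, 33% were then higher and 33.5% lower. These assignments are textbook background and were made with results of these data known.

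The vacuolar carriers were described in the same way, and 3 of 7 were higher, 1 was lower and 3 were not called, against 33.6% higher and 34.9% lower over all tested features. AVT3, which exports neutral amino acids from the vacuole, was at 300.2 and 263 CPM in control and at 464 and 386 CPM in adapted cells, 1.51-fold higher (log2 fold change 0.59 ± 0.11 SE, adjusted p 8.00e-04). AVT4, an exporter of neutral and basic amino acids, was at 198 and 174 CPM and at 277 and 273 CPM, 1.48-fold higher (0.57 ± 0.09 SE, adjusted p 2.43e-04). AVT7, also an exporter, was at 289.6 and 254.0 CPM and at 359 and 323 CPM (0.33 ± 0.10 SE, adjusted p 0.0128). With 1 library left out its log2 fold change ran from 0.233 to 0.421. For these 3 genes both adapted values lay above both controls.

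AVT1, which moves neutral amino acids into the vacuole, was at 162 and 163.5 CPM in control and at 169 and 154 CPM in adapted cells, with overlapping groups (-0.02 ± 0.09 SE, adjusted p 0.876). AVT6, an exporter of acidic amino acids, overlapped too, at 177 and 152 CPM and 175 and 152 CPM (-0.01 ± 0.10 SE, adjusted p 0.943). AVT5, whose function is not established, was at 59.5 and 62.1 CPM and at 54.8 CPM in both adapted libraries (-0.15 ± 0.09 SE, adjusted p 0.162). AVT2, also without an established function, lies 454 bases from CAN1 on chromosome V on the same strand. It was at 139 and 118 CPM and at 102 and 111 CPM (-0.26 ± 0.10 SE, adjusted p 0.0379), a small fall. With the replicate number as a block AVT2 was not called (adjusted p 0.0543), and 23 of the 34 members were, against 66.6% of all features. Leaving out 1 library gave log2 fold changes from -0.381 to -0.140 for AVT2.

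Set side by side, the plasma membrane genes had a median log2 fold change of 0.40 and ranged from -0.95 to 1.93, and the vacuolar genes had a median of -0.01 and ranged from -0.26 to 0.59. The summed level of the 27 plasma membrane genes was 9199 and 7865 CPM in control and 12139 and 10753 CPM in adapted libraries. That of the 7 vacuolar genes was 1326 and 1186 CPM in control and 1601 and 1454 CPM in adapted libraries. Both sums were higher in each adapted library than in each control. The plasma membrane sum is weighted to its highest genes and does not describe the list as a whole. Among these, BAP2 (1251 to 2242 CPM, control to adapted mean), DIP5 (758 to 2029 CPM) and PUT4 (512 to 1159 CPM) rose. GAP1 (1695 to 1172 CPM) and AGP1 (1047 to 732 CPM) fell. The difference between the lists was not tested, because their genes are not replicates of a condition, and the call shares of 16 of 27 and 3 of 7 are given as counts only.

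The order of levels, as CPM per kb of coding length, changed at the top. In control cells GAP1 was first at 937, followed by BAP2 at 684, AGP1 at 550.3, DIP5 at 415 and PUT4 at 272. In adapted cells BAP2 was first at 1225, followed by DIP5 at 1110, GAP1 at 648, PUT4 at 615 and AGP1 at 385. The same 5 genes therefore led in each group. In adapted libraries 1 and 2, GAP1 was at 691 and 604 CPM per kb and PUT4 at 696 and 534, so these neighbours in the order did not differ beyond their spread. ALP1 went from rank 30 to rank 19 of 34 (24.5 to 94.8 CPM per kb) and MUP1 from rank 9 to rank 21 (167 to 86.2 CPM per kb). DAL4, MUP3 and DUR3 stayed among the lowest in both groups, between 17.5 and 33.0 CPM per kb.

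**Figure D3:**
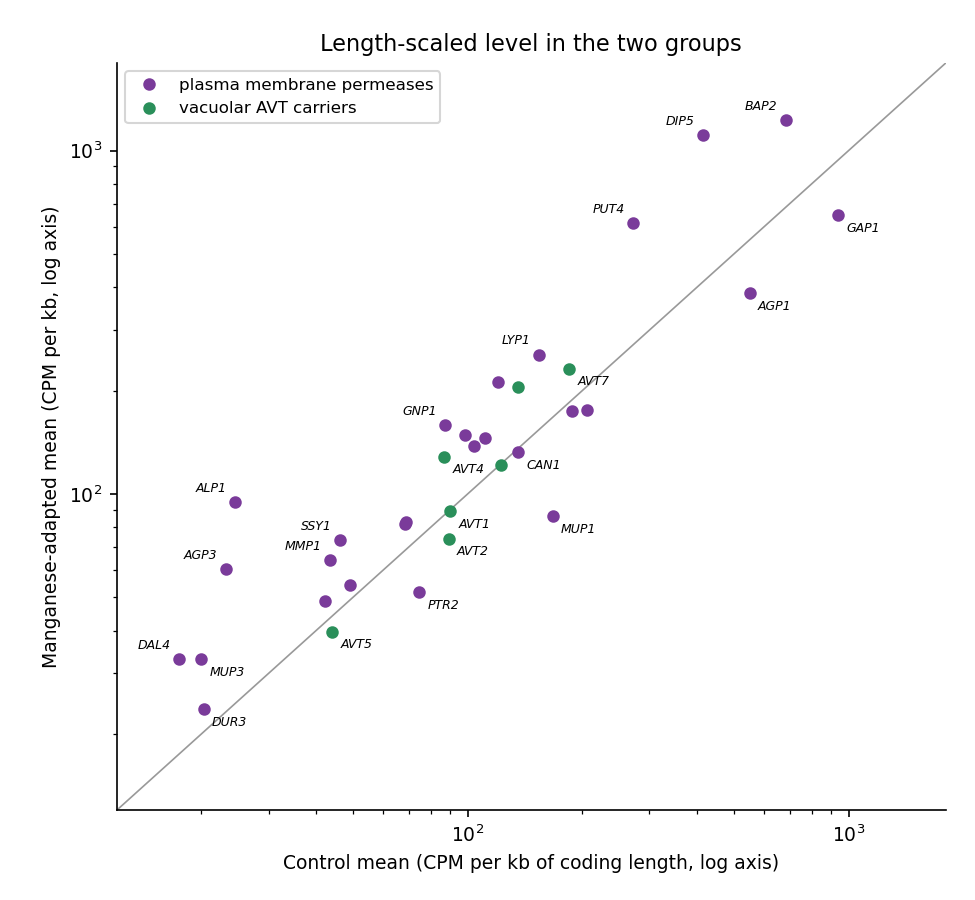
Mean level in control (x axis) and manganese-adapted cells (y axis), each in CPM per kb of coding length on log axes, for 27 plasma membrane genes (purple) and 7 vacuolar genes (green), with some genes named. The line marks equal levels, with BAP2 and DIP5 at the top above it and GAP1, AGP1, MUP1 and PTR2 below it.

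Coding length moved with the fold changes. Across 5769 tested features with an R64 coding length, log2 fold change and length had a Spearman correlation of 0.40, a description across genes, which are not independent replicates and share the same 4 libraries. All 34 members were longer than the median tested feature (1209 bp), at 1347 to 2559 bp, and each has 1 coding exon. At their median length the trend stood at a log2 fold change of 0.23. With the trend removed, 25 of the 34 members were called in either direction, against 66.5% of features with a length. Among them 13 of the 27 plasma membrane genes were higher and 7 lower, against 33% and 33.5% of all features with a length, and 2 of the 7 vacuolar genes were higher and 3 lower. The calls of HIP1 (0.04), SAM3 (0.17), MEP2 (0.28) and AVT7 (0.22) were then lost, and BAP3 (-0.34), CAN1 (-0.25), MEP3 (-0.32), AVT1 (-0.25) and AVT5 (-0.22) were called lower. ALP1 (1.72), DIP5 (1.20), AGP3 (1.18), PUT4 (0.93) and MUP1 (-1.16) remained called in the same direction. The part of length in these values was not tested.

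**Figure D4:**
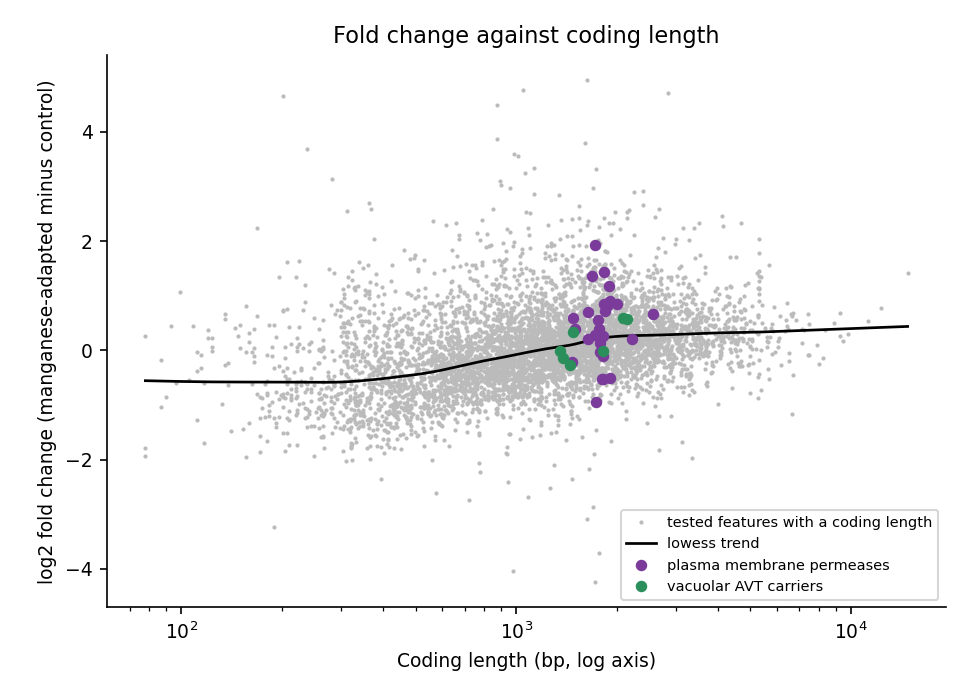
Log2 fold change, manganese-adapted minus control, against coding length in bp on a log axis for the 5769 tested features with a length (grey), with the lowess trend (black line), the plasma membrane genes (purple) and the vacuolar genes (green). The trend is near 0.23 at the members' median length, and members lie on both sides of it.

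The members also shared differences between replicates. Control replicate 1 was above control replicate 2 for 28 of 34 genes, and adapted replicate 1 above adapted replicate 2 for 27 of 34, against 49.6% and 50.7% of all tested features. Both held for 23 of the 34. The median differences were 0.17 and 0.14 on the log2(CPM + 1) scale, against 0.00 and 0.00 for all features. The source of the replicate differences was not tested.

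A further list of 22 carriers of peptides, nucleobases, ammonia and vitamins or of vacuolar amino acids was examined, of which 21 were tested. VBA3 was not, with 2 reads in adapted replicate 1 and 0 in the other libraries. Of the 21, 11 rose and 1 fell, against 33.6% higher and 34.9% lower over all features, and their median change on the log2 scale was 0.30. The largest rises were in ADY2, an acetate transporter also described as an ammonia exporter (2.59 ± 0.11 SE), and its relative ATO3 (1.91 ± 0.09 SE). ADY2 was at 168 and 134 CPM in control and at 949 and 875 CPM in adapted cells. BIO5, a biotin precursor carrier (1.29), FCY22, a relative of the purine-cytosine permease (1.17), and FUI1, the uridine permease (1.09), followed, with limma adjusted p of at most 9.85e-06 for all 5. By location, 9 of 12 plasma membrane genes were higher and 1 was lower, and 2 of 9 vacuolar or endosomal genes were higher and 0 lower, the latter below the 33.6% of all features called higher. The gene that fell, named after its value was seen, was OPT2, an oligopeptide transporter family member (-0.87 ± 0.09 SE, limma adjusted p 1.39e-05). FCY22 and FCY21 are close copies, and their reads may have been divided between them in counting. Counts in these small lists were not tested against each other.

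Of 34 genes for regulators of these permeases, 19 rose and 5 fell, against 33.6% and 34.9% of all features, and the median on the log2 scale was 0.38. It was 0.17 without the length trend. The group called SPS amino acid sensing here held PTR3, SSY5, STP1, STP2, ASI1, ASI2, ASI3, DAL81, CUP9 and UBR1. It is not a list of activators only, and the repressor gene CUP9 is 1 example, so its counts do not give a direction of signalling. In this group 8 of 10 rose and 0 fell, against 33.6% of all features called higher and 34.9% lower. Both adapted libraries lay above both controls for all 10, against 42.4% of all features. Without the length trend 6 of the 10 were higher and 0 lower. In the group of nitrogen catabolite repression and pathway activators, 4 of 10 rose and 2 fell, GAT1 and GZF3. GAT1, a GATA activator, was at 204 and 222 CPM in control and at 121 and 115 CPM in adapted cells (-0.85 ± 0.09 SE, adjusted p 9.47e-06). GLN3, the other GATA activator, went the other way, from 56.5 and 57.2 CPM to 97.7 CPM in both adapted libraries (0.77 ± 0.08 SE, adjusted p 1.70e-05). PUT3, the activator of proline degradation genes, rose by 1.03 ± 0.08 SE (adjusted p 2.25e-06) from 61.9 and 61.4 CPM to 124 and 129.7 CPM.

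Among genes for permease traffic and turnover, 7 of 14 rose and 3 fell, against 33.6% and 34.9% of all features. Without the length trend 3 of the 14 were higher and 5 lower, against 33% and 33.5% of features with a length. The 3 genes that fell in the reported fit, named after their values were seen, were SHR3 (-0.73), NPR2 (-0.60) and BUL2 (-0.47). SHR3 encodes a chaperone that lets amino acid permeases leave the endoplasmic reticulum. ECM21 and CSR2 encode arrestin-related adaptors of the ubiquitin ligase Rsp5, which marks permeases for removal from the plasma membrane, and both rose. ECM21 was at 79.4 and 74.8 CPM and at 159 and 159.6 CPM (1.04 ± 0.08 SE, adjusted p 2.05e-06), and CSR2 at 213 and 190.3 CPM and at 393 and 377 CPM (0.93 ± 0.09 SE, adjusted p 7.67e-06). Also described here, chosen after its value was seen, is CUP9, a repressor known to act on PTR2 and counted above with amino acid sensing. It was at 184 and 192 CPM and at 259 and 239.7 CPM (0.40 ± 0.09 SE, adjusted p 0.00161). UBR1, of the same group, rose too (0.36 ± 0.08 SE, adjusted p 0.00234), and was at 0.02 without the length trend. Any link of either gene to the fall of PTR2 was not tested. After removal of the length trend, 14 of the 34 regulator genes were higher and 7 lower, against 33% and 33.5% of features with a length.

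**Figure D5:**
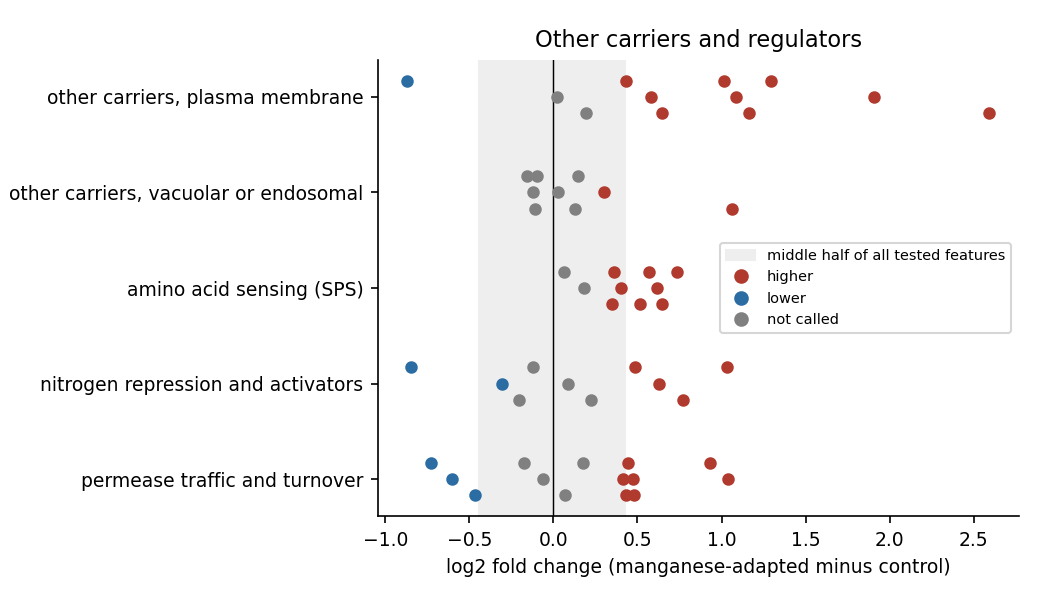
Log2 fold change of the other carriers, by location, and of the regulators, by group (adapted minus control in log2(CPM + 1)), with red for higher, blue for lower and grey for not called. The shaded band spans the lower to the upper quartile of all tested features (-0.44 to 0.43), and genes of amino acid sensing all lie right of 0.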

How the data were processed

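RNA-seq libraries were made from total RNA with a TruSeq kit, per the labels, which do not state strand. Groups follow the adaptation status in the labels. Build sacCer3 is named, per the submitters' processing notes, beside HTSeq, edgeR, Bowtie, TopHat2 2.0.13 and cutadapt 1.8.1. For annotation, counting mode and strand setting, nothing is given in the sources used here. Deposited columns are headed as counts but hold CPM on an effective library size. All values (100%) lay within 0.001 reads of a whole read, and reads were recovered for the count tests. For each feature the authors also deposited a false discovery rate, a p-value and a log2 fold change.

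limma 3.58.1 (R 4.3.3, trend, 2 residual degrees of freedom) was run on log2(CPM + 1), which understates changes of low genes, for features with at least 1 CPM in 2 libraries. A CPM value depends on all other genes of its library. edgeR 4.0.16 (quasi-likelihood) and DESeq2 1.42.0 on recovered reads, other pseudocounts, filters and scaling, trend removal by lowess (span 0.3) on coding length or GC, a replicate block and leaving out each library were alternatives. A floor of 3 reads is 0.212 to 0.237 CPM, for counting error only. Sequences and positions are R64, the assembly behind sacCer3. Coding sequences were aligned globally with Biopython 1.88.

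The members and lists were chosen with earlier results of these data known. All members, all genes listed as deleted, and the 5 largest called changes of each further list are named. The fitting code was tested on simulated data.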

Additional observations from a re-analysis of the deposited data

How the results depend on the processing

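Of the 24 members called, 16 kept their call and direction under every alternative run (AGP3, GNP1, BAP2, TAT1, ALP1, LYP1, DIP5, PUT4, MUP1, MUP3, MMP1, SSY1, DAL4, PTR2, AVT3 and AVT4). The other pseudocounts and filters and the edgeR quasi-likelihood test changed no member's call. The count of plasma membrane genes lower (4) was 7 with the coding length trend removed, with or without the replicate block, and ran from 2 to 5 over libraries left out. The count of plasma membrane genes higher (16) ran from 12 to 18 over libraries left out. The median log2 fold change of all 27 (0.40) ran from 0.32 to 0.57 over libraries left out and was 0.28 with the length trend removed, also with the block. The 1 vacuolar gene lower, AVT2, became 0 in DESeq2 (adjusted p 0.0629), with library size only (0.0772) and with the replicate block (0.0543). The vacuolar count lower was 3 with the coding length trend removed, also with the block. The count of other carriers lower (1) was 2 with the length trend removed, also with the block. The cause of these shifts was not tested.

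The members whose sign changed were not called in the reported fit. With the length trend removed, TAT2 was -0.080 and DUR3 -0.054, also with the block. With library size only, AVT1 was 0.006 and AVT6 0.013. Over libraries left out, TAT2 ran from -0.002 to 0.286, CAN1 from -0.124 to 0.060, UGA4 from -0.011 to 0.566, AVT1 from -0.084 to 0.052 and AVT6 from -0.120 to 0.102. Deviations of libraries with the same replicate number correlated at -0.18 across all tested genes, which did not meet the rule for pairing libraries by number. Among the members the replicates differed the same way in both groups for 23 of 34. The crossed pairing, chosen after seeing the data, gave 17 plasma membrane genes higher and 5 lower. The replicate block changed only the AVT2 call among the 34 members. Every member had 31.5 CPM or more in each library, and the 2 libraries per group set the precision.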
